A study of Mus with 4 samples.

Results

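*Gt(ROSA)26Sor*, the noncoding transcript of the *Rosa26* locus, and the flanking genes *Thumpd3* and *Setd5* were described in hearts of newborn mice. They were 3 genes of the 55487 mouse Ensembl gene IDs in the deposited table, with the IDs ENSMUSG00000086429 for *Gt(ROSA)26Sor*, ENSMUSG00000030264 for *Thumpd3* and ENSMUSG00000034269 for *Setd5*. *Gt(ROSA)26Sor* was chosen by its fragment values, because it stood far lower in one group of libraries than in the other, so its difference between groups is given as a description, without a test. *Thumpd3* and *Setd5* were chosen by their position on either side of it.

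The libraries came from heart tissue at P0, the day of birth, and were made from mRNA. Per the labels and the design text, 2 came from wild-type (WT) mice and 2 from mice overexpressing miR-187. In the mouse line of the study, on a C57BL/6J background, a single copy of a mouse miR-187 fragment was placed at *Rosa26* with CRISPR/Cas9, in a cassette that also holds promoter and enhancer sequence of *Tek* (*Tie2*) and the polyadenylation signal of a rabbit globin gene. The *Tek* promoter is active in endothelial cells, which are a minority of the cells of a heart. Whether these animals carried the cassette on 1 or both chromosomes is not in the labels, whereas the methods of the study name homozygous (KI/KI) and WT pups for sequencing. Those methods also name cardiac endothelial cells, but the labels name heart, and the wording of the labels is followed. Nothing in the labels says whether a library held 1 heart or several, nor whether replicates were separate litters. The p-values therefore measure the spread between these libraries only.

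*Rosa26* was found as a gene-trap insertion in embryonic stem cells that was active in nearly all tissues of the mouse. Its promoter drives spliced noncoding transcripts with no known essential function, and the locus became the usual landing site for transgenes, most of them placed in its first intron. *Thumpd3* encodes an RNA methyltransferase that modifies transfer RNAs together with the activator protein Trmt112. *Setd5* encodes a SET-domain chromatin protein found with the NCoR-HDAC3 and PAF1 complexes, and mouse embryos that lack it die with cardiovascular defects. *Thumpd3* and *Setd5* are transcribed in one direction and *Gt(ROSA)26Sor* in the other, which is why *Thumpd3as1* is among its older names.

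In the RefSeq annotation of GRCm38.p6, the assembly of the mm10 build named by the submitters, *Gt(ROSA)26Sor* is a long noncoding RNA gene at chr6:113067428-113077244, with 3 transcripts and a span of 9817 bases. *Thumpd3* lies at chr6:113046302-113068278, so that its end overlaps the last 851 bases of *Gt(ROSA)26Sor*, which are 8.67% of the span of *Gt(ROSA)26Sor* and 3.87% of that of *Thumpd3*. *Setd5* lies at chr6:113077262-113153432. With 17 bases between *Gt(ROSA)26Sor* and *Setd5*, both genes are read outwards from almost the same point. The use of strand in the authors' quantification is not given in the sources used here, so fragments from the stretch shared by *Gt(ROSA)26Sor* and *Thumpd3* cannot be told apart.

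The next protein-coding genes lie farther away. *Srgap3* ends 98.8 kb before *Thumpd3*, and *Lhfpl4* begins 14.7 kb after *Setd5*. Within 1 Mb either side of the lower end of *Gt(ROSA)26Sor* there are 60 annotated genes, of which 34 are protein coding. The levels of all but the 3 described were not analysed here, because the reference used pairs no Ensembl IDs with symbols.

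**Figure D1:**
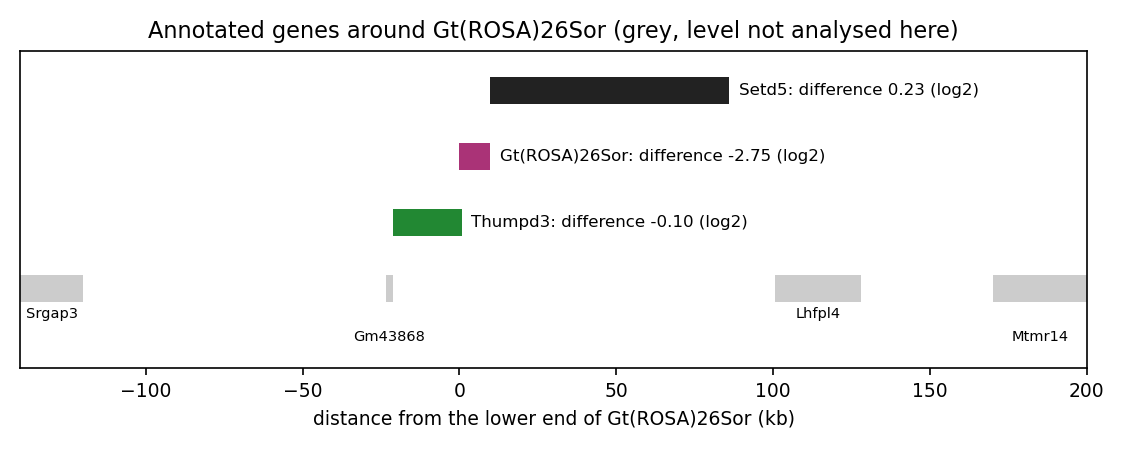
Genes around *Gt(ROSA)26Sor* as horizontal bars over their annotated spans, with the distance in kb from the lower end of *Gt(ROSA)26Sor* on the x axis; rows separate the genes and carry no value. The differences between miR-187 and WT on the log2(FPKM + 1) scale were -0.10 for *Thumpd3*, -2.75 for *Gt(ROSA)26Sor* and 0.23 for *Setd5*, and genes in grey were not analysed.

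The cassette was directed to this locus by guide RNA. The study lists a pair of guides in its primer table and names the one called gRNA-S2 for its injections. That guide is shown because it was directed at the site of the insertion, and gRNA-S3 is shown beside it because their sequences overlap. Each is 20 bases, written 5′ to 3′, and capitals mark the 11 bases that they share.

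gRNA-S3: agtcttctgGGCAGGCTTAA

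gRNA-S2: GGCAGGCTTAAaggctaacc

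The guides lie on the same strand with gRNA-S2 starting 9 bases after gRNA-S3. The 3 bases that follow gRNA-S3 in the sequence of gRNA-S2 are AGG, of the form NGG that Cas9 needs beside its target (its PAM). The primer pair listed for the WT allele is shown because it was used to genotype this locus; both primers follow in lower case, 5′ to 3′, with no capitals.

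WT-F1: cccaaagtcgctctgagttgtta

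WT-R1: tcgggtgagcatgtctttaatct

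WT-F1 has the same sequence as 2 primers listed for the knock-in mice, miR-187-KI-F1 and miR-187-KI-F3, and WT-R1 the same as 2 others, miR-187-KI-R2 and miR-187-KI-R3. The pair listed as F3 and R3 is thus the WT pair. The study describes PCR tests of both junctions of the insertion and of a stretch inside the transgene. The products of these primers were not worked out here, so how they tell the alleles apart is not described. None of these sequences was placed on the genome here, so the distance from the cut to the start of *Gt(ROSA)26Sor* or of *Setd5* is not given.

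Values are the authors' FPKM, that is fragments scaled to the length of the transcript and to the mapped total of the library. Division by length lets genes be set side by side only roughly. The annotation release and the assignment of shared fragments, on which such comparisons depend, are not given in the sources used here. Read depth is unknown. The sum of FPKM lay between 750826 and 807359 in the 4 libraries, and the median over all IDs between 0.241 and 0.562 FPKM, with the higher medians in both replicate 1 libraries.

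*Gt(ROSA)26Sor* had 7.35 FPKM in WT replicate 1 and 11.1 FPKM in WT replicate 2. In the miR-187 libraries it had 0.329 FPKM in replicate 1 and 0.686 FPKM in replicate 2. Both miR-187 libraries were far below both WT libraries, and every value was above 0. The WT libraries averaged 9.22 ± 2.64 FPKM, against 0.507 ± 0.252 FPKM for the miR-187 libraries (SD, n = 2 each), so that the mean level in miR-187 was 5.50% of that in WT, an 18.2-fold difference. The lower WT library was 10.7 times the higher miR-187 library, and the higher WT library was 33.7 times the lower miR-187 library. Between the libraries of one group the values differed less, by 1.51-fold in WT and by 2.08-fold in miR-187. In RNA from heart tissue, fewer cells that make a transcript and less of it per cell cannot be told apart.

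The place of *Gt(ROSA)26Sor* among all IDs restates the same values without a fold change, and a lower place in miR-187 follows from its choice. In WT it stood above 92.0% of the IDs in replicate 1 and 93.4% in replicate 2. In miR-187 it stood above 42.8% and 70.6%. The transcript thus ranked high in each WT library and in the broad middle in miR-187, where it lay a little below the library median in replicate 1 and above it in replicate 2.

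**Figure D2:**
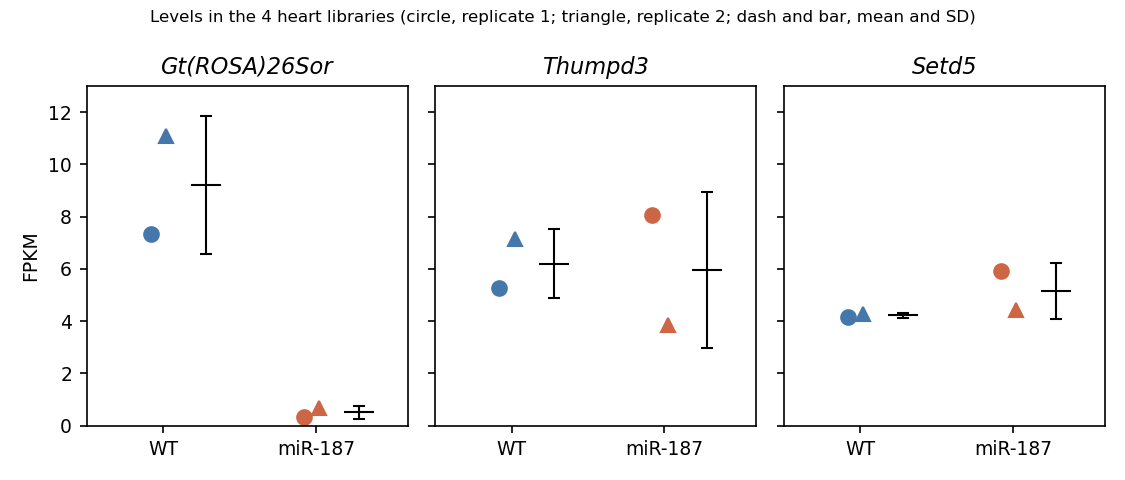
FPKM of *Gt(ROSA)26Sor*, *Thumpd3* and *Setd5* on the y axis by group on the x axis, with circles for replicate 1, triangles for replicate 2, and a dash and bar for the mean and SD of 2 libraries. *Gt(ROSA)26Sor* is at 7.35 and 11.1 FPKM in WT and below 1 FPKM in miR-187, whereas *Thumpd3* and *Setd5* stay between 3.86 and 8.08 FPKM in all libraries.

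*Thumpd3*, the tRNA methyltransferase gene whose end overlaps *Gt(ROSA)26Sor*, had 5.26 FPKM and 7.14 FPKM in WT replicates 1 and 2. In miR-187 it had 8.08 FPKM in replicate 1 and 3.86 FPKM in replicate 2. The miR-187 libraries held both the highest and the lowest value, so the groups overlapped completely. The average was 6.20 ± 1.33 FPKM for WT, against 5.97 ± 2.98 FPKM for miR-187 (SD, n = 2 each). Values of the miR-187 libraries differed by 2.09-fold from each other, and the spread of this gene within groups (a residual SD of 0.49 on the log2 scale) was above the median of 0.31 for tested genes.

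*Setd5*, the chromatin gene that starts beside *Gt(ROSA)26Sor*, was the steadiest of the 3 genes in WT, with 4.16 FPKM in replicate 1 and 4.29 FPKM in replicate 2. In miR-187 it had 5.90 FPKM in replicate 1 and 4.41 FPKM in replicate 2. Both miR-187 values lay above both WT values, but replicate 2 exceeded the higher WT value by a ratio of only 1.03. The average was 4.23 ± 0.0897 FPKM for WT, against 5.16 ± 1.06 FPKM for miR-187 (SD, n = 2 each). Of all tested genes, 12.3% also had both miR-187 libraries above both WT libraries, and 13.2% had both below, as *Gt(ROSA)26Sor* did by its choice.

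The 3 genes were then set against all others in a fit of log2(FPKM + 1) over 14325 genes that averaged 1 FPKM or more, a filter that all 3 passed. *Gt(ROSA)26Sor* passed it through the WT libraries alone. Neither flanking gene passed the threshold of 0.05 for the adjusted p in limma. For *Thumpd3* the difference between miR-187 and WT was -0.10 (log2, standard error 0.38), with a 95% interval from -0.89 to 0.68 and a limma adjusted p of 0.9997. For *Setd5* it was 0.23 (log2, standard error 0.35), with a 95% interval from -0.50 to 0.95 and a limma adjusted p of 0.9997. The count of 0 of 2 flanking genes stands beside 0.00698% of all tested genes called. That share is 1 gene, *Gt(ROSA)26Sor* itself, which was chosen by this difference, so nothing is read from it. With *Gt(ROSA)26Sor* left out 0 genes were called, and over all tested genes 447 had an unadjusted p under 0.05.

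The 95% intervals were wide. As folds of FPKM + 1 they ran from 0.539-fold to 1.61-fold for *Thumpd3* and from 0.708-fold to 1.93-fold for *Setd5*. They are not adjusted for the number of genes tested, so they are no limits of detection. The absolute difference was larger than that of *Thumpd3* for most tested genes, since only 26.8% of them had a smaller one, and 53.4% had a smaller one than *Setd5*. The median absolute difference was 0.21 over the tested genes. The difference of *Thumpd3* was thus among the smaller ones, and that of *Setd5* was near the middle.

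For *Gt(ROSA)26Sor* the difference on the same scale was -2.75 with a standard error of 0.35. This scale understates low values, which is why it gives a smaller change than the 18.2-fold ratio of the means. Of the tested genes, 2 had a more negative difference and 9 had a positive one of larger size. That place follows from the choice of *Gt(ROSA)26Sor* by this difference, so nothing is read from it. The residual SD within groups was 0.32 on this scale, close to the median of tested genes. The scale also narrows the spread of low values. The 0.32 therefore understates the spread of the miR-187 libraries, whose FPKM values differed by 2.08-fold.

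**Figure D3:**
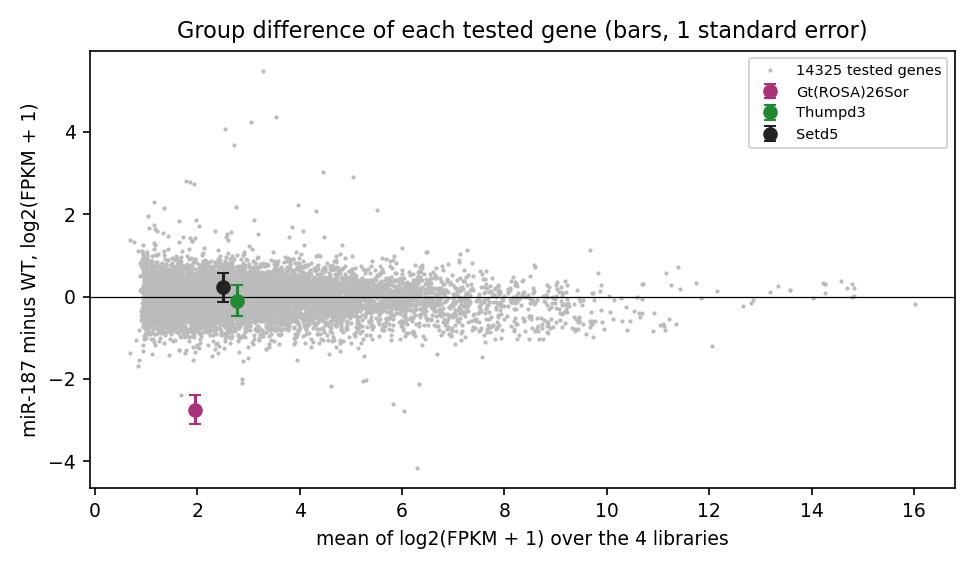
Difference between miR-187 and WT on the y axis against the mean level on the x axis, both in units of log2(FPKM + 1), for 14325 tested genes in grey and the 3 genes in colour with 1 standard error. *Gt(ROSA)26Sor*, which was chosen by this difference, lies at -2.75, below nearly all grey points. *Thumpd3* and *Setd5* lie among the grey points near 0.

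Ratios between the genes within a library do not depend on how libraries are scaled to each other. *Gt(ROSA)26Sor* had 1.77 and 2.59 times the level of *Setd5* in WT replicates 1 and 2, and 0.0557 and 0.156 times in miR-187 replicates 1 and 2. The lowest WT ratio was 11.4 times the highest miR-187 ratio. Relative to *Thumpd3*, the level of *Gt(ROSA)26Sor* was 1.40 and 1.55 times in WT and 0.0407 and 0.178 times in miR-187. Here the lowest WT ratio was 7.86 times the highest miR-187 ratio. *Gt(ROSA)26Sor* was thus below each neighbour in both miR-187 libraries and above each in both WT libraries. These ratios reuse the values by which *Gt(ROSA)26Sor* was chosen, so they describe the same difference and add no separate support. Its miR-187 values, 0.329 and 0.686 FPKM, were low, which makes the ratios in these libraries imprecise.

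The ratio of *Thumpd3* to *Setd5* served as a comparison that leaves *Gt(ROSA)26Sor* out. It was 1.26 and 1.66 in WT and 1.37 and 0.875 in miR-187. The miR-187 libraries lay on either side of the lower WT value, and only in miR-187 replicate 2 was *Setd5* the higher of the pair.

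**Figure D4:**
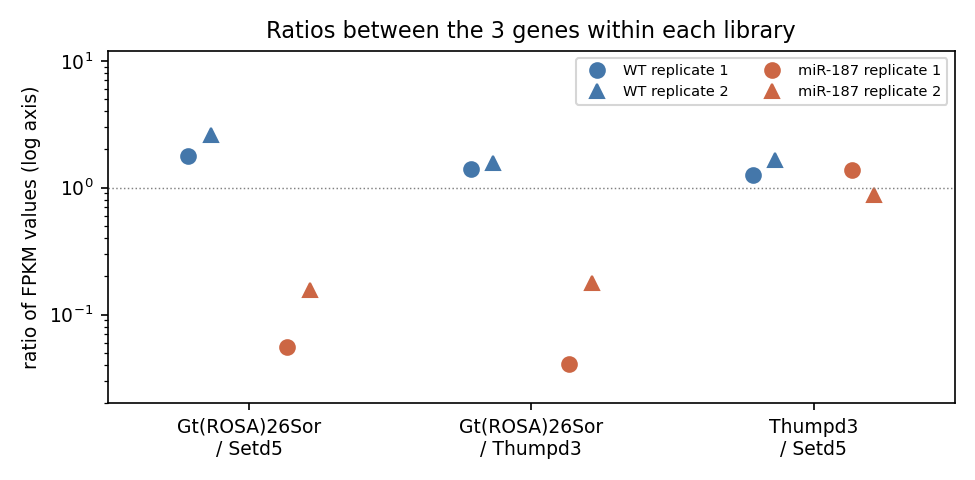
Ratio of FPKM values between pairs of the 3 genes on a log y axis, with the pair on the x axis, circles for replicate 1 and triangles for replicate 2, and a dotted line at 1. The ratios with *Gt(ROSA)26Sor* are at 1.40 or more in WT and at 0.178 or less in miR-187, whereas the ratios of *Thumpd3* to *Setd5* lie between 0.875 and 1.66.

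The order of levels followed from these values. In both WT libraries *Gt(ROSA)26Sor* was highest, *Thumpd3* next and *Setd5* lowest. The WT range of *Gt(ROSA)26Sor* began only just above that of *Thumpd3*, at 7.35 FPKM in replicate 1 against 7.14 FPKM in replicate 2. That gap, between different libraries, was smaller than the SD of either gene. The WT ranges of *Thumpd3* and *Setd5* did not overlap either, at 5.26 FPKM in replicate 1 against 4.29 FPKM in replicate 2. This gap, also between different libraries, was below the SD of *Thumpd3*. In miR-187, *Gt(ROSA)26Sor* was lowest in both libraries, and *Thumpd3* and *Setd5* changed places between replicates.

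Genes with a pattern like that of *Gt(ROSA)26Sor* were sought over the 4 libraries, by the root mean square difference between log2(FPKM + 1) values after each gene was centred on its own mean. The values of *Gt(ROSA)26Sor* itself had a root mean square of 1.39 about their mean. The nearest of the 14324 other tested genes, with a difference of 0.446, was ENSMUSG00000066037.14, at 12.9 and 14.7 FPKM in the WT libraries, against 3.04 and 2.33 FPKM in those of miR-187. The next, at 0.620, was ENSMUSG00000021622.3, at 39.4 and 155 FPKM in the WT libraries, against 15.7 and 21.8 FPKM in those of miR-187. Both were lower in both miR-187 libraries, as the measure requires, but by less than *Gt(ROSA)26Sor*. *Thumpd3* ranked 6862 and *Setd5* ranked 11174 in this order, with differences of 1.39 and 1.52 against a median of 1.40.

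The difference for *Gt(ROSA)26Sor* was -2.48 at its nearest to 0 in the 12 alternative fits that kept it, and its sign was fixed by the choice of a gene whose groups lay far apart. For *Thumpd3* the direction depended on single libraries. It was 0.08 without WT replicate 2 and 0.35 without miR-187 replicate 2, the library with its lowest value. The difference for *Setd5* was positive in each of the 12 fits that kept it but was 0.05 without miR-187 replicate 1, the library with its highest value.

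**Figure D5:**
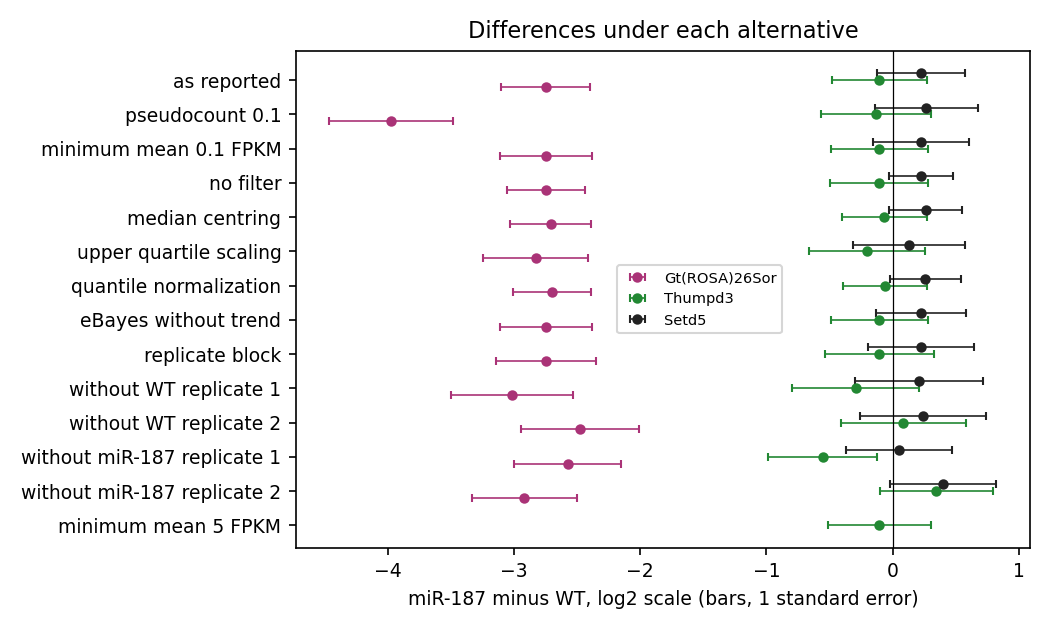
Difference between miR-187 and WT on the x axis, in log2 units with 1 standard error, for each alternative on the y axis and the 3 genes in colour. *Gt(ROSA)26Sor* lies at -2.48 or lower throughout, *Thumpd3* lies on both sides of 0, and *Setd5* is above 0 by less than 1 standard error.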

How the data were processed

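The values used were FPKM as deposited by the authors, 1 column per library. HISAT2, StringTie and DESeq2 and the build mm10 are named in the submitters' processing notes, with no versions or roles; the annotation release and use of strand are not given in the sources used here. FPKM carries no counts, so depth is unknown and precision rests on the replicates.

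The 3 genes, the lists and the tests were chosen with earlier results of these data known. The pairing of the 3 Ensembl IDs with symbols came with that choice and was not checked, since the RefSeq table used for positions has 49997 rows and 0 Ensembl IDs. For the same reason, genes within 1 Mb, partners of the flanking genes, *Tek*, *Mir187* and markers of heart and other cell types were not analysed here, and neither tissue nor genotype was checked by markers.

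IDs were matched without version suffix. Differences in log2(FPKM + 1) were fitted with limma 3.58.1 (R 4.3.3; lmFit and eBayes with a trend, no replicate block) for IDs averaging 1 FPKM or more, two-sided, with Benjamini-Hochberg adjustment over 14325 genes and a threshold of 0.05. The procedure was tested on simulated data. An exact permutation test of 2 libraries against 2 cannot go below p = 0.333, so none was used. Genes alike in pattern were those with the smallest root mean square difference, with at most 2 unnamed IDs per direction. Guides and primers were copied from the study's primer list. Figures used matplotlib 3.10.9 in Python 3.11.15. The alternatives tried were another pseudocount (0.1), other filters (0.1 FPKM, 5 FPKM, none), another scaling (medians, the upper quartile of values above 0, quantiles), eBayes with no trend, the replicate block, and each library left out in turn.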

Additional observations from a re-analysis of the deposited data

How the results depend on the processing

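*Gt(ROSA)26Sor* lay at -3.98 with a pseudocount of 0.1, a smaller constant that stretches the scale for low FPKM, and between -3.01 and -2.48 when 1 library was left out. A minimum mean of 5 FPKM removed it and *Setd5*. *Thumpd3* lay between -0.56 and 0.35 and *Setd5* between 0.05 and 0.40 when 1 library was left out, and neither had a limma adjusted p under 0.05 in any alternative. Leaving out 1 library left an arm with a lone library, assumed to vary like the others. The log2 ratio of *Gt(ROSA)26Sor* to *Thumpd3* differed between groups by -4.11, and by -3.05 without miR-187 replicate 1 and -5.18 without miR-187 replicate 2. Its ratio to *Setd5* differed by -4.52, and by -3.78 and -5.26 without these libraries.

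Over all genes, 0 were called higher and 1 lower as reported, and the 1 was *Gt(ROSA)26Sor*, chosen by this difference. The counts were 31 higher and 15 lower with a minimum mean of 0.1 FPKM, 25 and 17 with upper quartile scaling, and 33 and 18 with the replicate block. There were 0 lower with a minimum mean of 5 FPKM, without a filter and with quantile normalization, where unadjusted limma p-values under 0.05 numbered 153, 1122 and 458. With 1 library left out, the fewest calls, 11 higher and 14 lower, came when it was miR-187 replicate 2; the most were 62 higher when it was miR-187 replicate 1 and 56 lower when it was WT replicate 1. In the fits with more calls limma estimated infinite prior degrees of freedom; the cause was not tested. Libraries that share a number deviated from their groups with r = -0.0675 across genes, and no label ties a number to a litter or batch, so the numbers were read as names and not as pairs. The alternatives planned for genes within 1 Mb and for partners of the flanking genes were not run. Depth limits cannot be given without counts.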
